A study of Mus musculus with 31 samples.

Results

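Among 31 whole-brain arrays, 4 had a signal for Gabra6, a receptor subunit of cerebellar granule neurons, that was below that of every other array, and they are described here against the other 7 arrays of their own groups. The 4 arrays were serum 1 h replicate 1, oleic acid 1.5 h replicate 2, serum 4 h replicate 2 and oleic acid 4 h replicate 3. They were chosen by their Gabra6 level alone, so every difference between them and their group mates is given as a description with no test. The remaining 20 arrays, from the other 8 groups, took no part in that comparison and were used to test which transcripts vary with Gabra6. All mice were female C57BL/6, 6 weeks old, anaesthetised with ketamine and xylazine, and injected through the tail vein with 200 µl of physiological serum or of an oleic acid solution dosed at 1.2 µl for each g of weight, in a study of brain inflammation during acute lung injury. Brains were taken 1, 1.5, 3, 4, 18 or 24 h later, 1 array to a brain. The 4 groups that hold a low-Gabra6 array were serum at 1 h (3 mice), oleic acid at 1.5 h (3 mice), serum at 4 h (2 mice) and oleic acid at 4 h (3 mice). The other 8 groups were oleic acid at 1 h and serum at 1.5 h (3 mice each), oleic acid at 3 and 24 h (3 mice each), and serum at 3, 18 and 24 h and oleic acid at 18 h (2 mice each). No genetic change is given for any group, and the labels name no way of dividing the brain.

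The cerebellum holds most of the neurons of the mouse brain, nearly all of them granule cells, whose parallel fibres excite Purkinje cells, the only output neurons of its cortex. Granule cells carry the alpha-6 subunit of the GABA-A receptor and release cerebellins, secreted proteins that hold their synapses with Purkinje cells together. Some of these genes, such as Gabra6 and Cbln3, are expressed little elsewhere in the brain. Their level in RNA from a whole brain is therefore commonly read as a sign of its cerebellar content. In such bulk RNA, fewer cells of a type and less RNA per cell cannot be told apart.

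Gabra6, Cbln3 and Pcp2, the 3 genes taken as cerebellar markers, moved together over the arrays, and the 250 bases before their starts are shown for that reason. The sequences are RefSeq promoters on GRCm38.p6, all on the minus strand, at chr11:42321073-42321322 for Gabra6, chr14:55884257-55884506 for Cbln3 and chr8:3625548-3625797 for Pcp2, for which the table holds 4 starts. Capitals mark matches, on either strand, to TTGGC (a nuclear factor I half-site, present as its complement), AGGTCA (a nuclear receptor half-site) and CAGATG (an E-box).

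Gabra6: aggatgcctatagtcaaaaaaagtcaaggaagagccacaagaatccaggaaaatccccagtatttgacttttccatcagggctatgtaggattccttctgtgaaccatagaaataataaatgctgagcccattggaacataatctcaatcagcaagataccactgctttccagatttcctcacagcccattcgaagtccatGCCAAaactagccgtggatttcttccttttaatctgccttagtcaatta
Cbln3: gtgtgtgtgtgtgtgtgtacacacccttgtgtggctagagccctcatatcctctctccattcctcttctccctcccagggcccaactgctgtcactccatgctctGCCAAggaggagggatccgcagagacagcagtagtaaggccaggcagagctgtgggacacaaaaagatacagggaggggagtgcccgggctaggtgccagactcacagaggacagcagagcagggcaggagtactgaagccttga
Pcp2: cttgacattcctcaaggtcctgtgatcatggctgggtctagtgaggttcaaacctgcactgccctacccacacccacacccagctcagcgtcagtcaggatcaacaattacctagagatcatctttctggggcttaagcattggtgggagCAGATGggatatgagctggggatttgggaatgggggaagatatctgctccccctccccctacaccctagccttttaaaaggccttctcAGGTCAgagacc

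The TTGGC match lay 49 to 45 bases before the start in Gabra6 and 145 to 141 bases before it in Cbln3. Pcp2 held AGGTCA 12 to 7 bases and CAGATG 100 to 95 bases before its start. These matches are common letters: TTGGC stood in 41.5% of all 32851 promoters of this length, AGGTCA in 14.0% and CAGATG in 14.4%. Over the 93 promoters of 70 genes counted below as lower in the 4 arrays, the shares were 39.8%, 21.5% and 19.4%.

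Signals are log2 processed Cy3 intensities minus the 75th percentile of the array, so 0 is the level of a fairly bright spot, and they carry no unit below. The 4 arrays had 60.1% to 63.6% of spots well above background and their group mates 59.6% to 76.3%, so the arrays overlapped in depth, and no spot was saturated. All arrays of serum at 1 h lay on slide 1 and all arrays of both 4 h groups on slide 4, so these low arrays share a slide with their mates. In oleic acid at 1.5 h, the low array and replicate 3 lay on slide 3 and replicate 1 on slide 2, which was scanned at another time. No label says that replicates came from separate experiments, so errors measure the spread between these mice.

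Gabra6 (probe at chr11:42120087-42120146 on mm9, minus strand) was -7.50 in serum 1 h replicate 1, against 2.12 and 2.21 in its mates. It was -7.59 in oleic acid 1.5 h replicate 2 against -1.44 and 1.06, -7.31 in serum 4 h replicate 2 against 1.89, and -6.12 in oleic acid 4 h replicate 3 against 0.68 and 1.94. The Gabra6 signal was not well above background on any of the 4 arrays and was above it on the other 27, so the difference of -8.37 ± 0.57 (SE; 4 against 7 arrays) means a level at least 102-fold lower. Just outside the group of 4 stood serum 1.5 h replicate 3 at -3.93 and serum 18 h replicate 1 at -2.85, each far below its own group mates. The highest level, 2.32, was in oleic acid 18 h replicate 2. Gabra6 therefore did not split the arrays into 2 clean sets, and oleic acid 1.5 h replicate 1, a mate here, was itself low.

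Cbln3, a cerebellin of granule cells (probe at chr14:56498792-56498851 on mm9), was -7.53, -7.67, -7.41 and -7.30 in the 4 arrays, in the order serum 1 h, oleic acid 1.5 h, serum 4 h and oleic acid 4 h. Its level ran from -4.26 to -0.36 in the 7 mates, so the sets did not overlap, and it too was not well above background on any of the 4 arrays. The difference was -5.75 ± 0.51, at least 13.2-fold. Pcp2, a Purkinje cell protein that modulates G-protein signalling (probe at chr8:3623377-3623436 on mm9), was -1.31, -1.26, -1.28 and 0.11 in the 4 arrays and 3.06 to 6.05 in the mates. Its difference was -6.19 ± 0.48, 73.0-fold lower, but the signal stayed well above background on all 4 arrays. The 4 brains thus kept 1.37% of their mates' Pcp2 signal: "lacking cerebellar signal" describes Gabra6 and Cbln3 at the limit of this array, and Pcp2 was very low rather than absent.

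**Figure D1:**
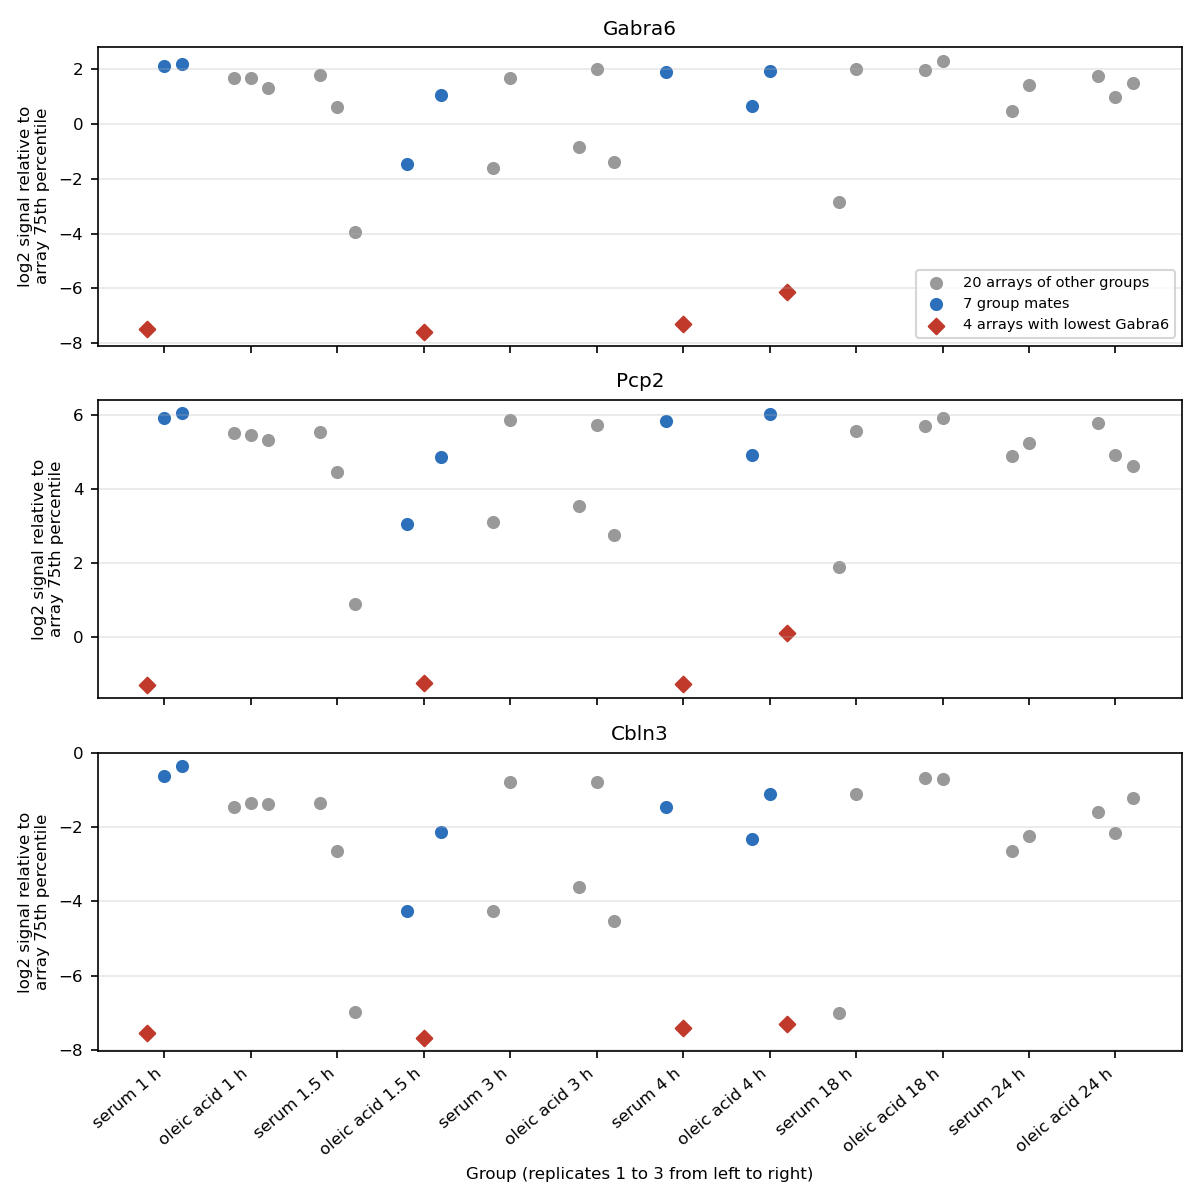
Log2 signal of Gabra6, Pcp2 and Cbln3 (y axis, relative to the 75th percentile of the array) in each of the 31 arrays by group (x axis); red diamonds are the 4 low-Gabra6 arrays, blue points their 7 group mates and grey points the 20 arrays of the other groups. Pcp2 lies between -1.31 and 0.11 on the red arrays and at or above 3.06 in their mates, and 2 grey arrays with Gabra6 at -3.93 and -2.85 are also low in Pcp2 and Cbln3.

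Of 25280 genes and unnamed transcripts, 137 (0.542%) were counted as lower, meaning a difference of 2-fold or more with each of the 4 arrays below all of its own group mates. Only 4 (0.0158%) were counted as higher by the mirrored rule, and 3 to 14 when 1 of the 11 arrays was left out. Of the 137, 48 were lower by 4-fold or more, 22 by 8-fold and 9 by 16-fold, and 41 carry a clone or transcript identifier in place of a gene name. Their median difference was -1.52, against 0.03 over all genes. Of the 137, 102 were well above background on all 7 mates. For the others, a position below some mate can rest on the order of dim signals. On the 4 low arrays, 77 of the 137 kept a signal well above background on every one and 32 on none. The count was 210 without oleic acid 1.5 h replicate 1 and 328 without oleic acid 1.5 h replicate 2. It was 58 with another background correction (normexp) and 60 in the deposited value table, where the difference of Gabra6 itself was -4.51 and -5.32.

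Differences of any size were not balanced in direction. The low arrays lay below all mates in all 4 groups for 862 genes (3.41%) and above them for 2839 (11.2%). This split depends on how arrays are scaled: with the array median in place of the 75th percentile it was 246 against 3734, and the median of all genes was 0.15 instead of 0.03. Small differences are therefore to be read against a shift of that size.

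Beyond the 3 markers, the largest named differences joined granule and Purkinje genes with genes that are in neither marker list. Ppp1r17, a phosphatase inhibitor of Purkinje cells, was -4.92, -4.54, -4.52 and -4.86 in the 4 arrays and -2.21 to 1.04 in the mates, a difference of -4.92 ± 0.51. Crtam, an adhesion molecule first known from T cells, was -4.43, -3.65, -2.61 and -2.38 against -1.27 to 2.36, a difference of -4.79 ± 0.60. Fat2, a giant cadherin of granule cells, was -2.71, -2.77, -3.11 and -3.33 against -0.43 to 2.25, a difference of -4.48 ± 0.43. No low array overlapped a mate in these 3 genes.

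Next came Cabp2, a calcium-binding protein, which was not well above background on any low array and at least 5.85-fold lower. Bcl2l15, a relative of the Bcl2 cell death regulators, differed by -3.73, but its second probe by only -0.40, so its size is uncertain. Dao, the D-amino acid oxidase of hindbrain and cerebellar astroglia, differed by -3.40 ± 0.49, Mybpc3 (a myosin-binding protein of heart muscle) by -3.29 ± 0.41 and Hes3 (a Hes family repressor) by -3.29 ± 0.50. Tgm5, a transglutaminase, was at least 4.05-fold lower and not well above background on the low arrays. Krt25, a keratin, differed by -3.17 ± 0.46, Car8, a carbonic anhydrase relative of Purkinje cells that binds the IP3 receptor, by -3.07 ± 0.49, and the zinc finger gene Zfp385c by -3.01 ± 0.48.

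Granule cell genes were lower as a group, but unequally. Of 24 measured members of the list, 23 had a difference below 0, against 10918 of all 25280 genes. Of the 24, 10 were counted as lower, against 0.542% of all genes, and none as higher, with a median of -1.02. The list holds Gabra6, by which the arrays were chosen. En2, the engrailed homeobox factor of the mid-hindbrain, differed by -2.72 ± 0.41, Neurod1, a bHLH factor of granule cells, by -2.41 ± 0.33, and Cbln1, the cerebellin that holds parallel fibre synapses together, by -2.30 ± 0.38. Il16 (a cytokine precursor with a neuronal form) differed by -2.21 ± 0.35, Zic2 by -1.57 ± 0.45, Mab21l1 by -1.42 ± 0.22 and Pax6 by -1.03 ± 0.21, although Pax6's second probe gave -0.38. Genes also widely expressed in the forebrain hardly moved: Gabrd differed by -0.05 ± 0.09 and the vesicular glutamate transporter Slc17a7 by 0.08 ± 0.23.

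Purkinje cell genes gave the same picture: 25 of 27 members were below 0, with a median of -0.84. Of the 27, 11 were counted as lower, against 0.542% of all genes, and none as higher. After Pcp2, Ppp1r17 and Car8 came Arhgef33, an exchange factor, at -2.99 ± 0.40 and the LIM homeobox factor Lhx1 at -2.50 ± 0.34, for which the second probe gave -1.81. Skor2, a corepressor needed for Purkinje cell maturation, differed by -2.24 ± 0.46 and was not well above background on any low array. The synaptic scaffold Homer3 differed by -1.49 ± 0.16, the channel subunit Kcng4 by -1.40 ± 0.17, the glutamate transporter Slc1a6 by -1.14 ± 0.23 and the calcium buffer Pvalb by -1.01 ± 0.17. Calb1, often used to stain Purkinje cells, differed by -0.84 ± 0.22 and was under the 2-fold limit. Itpr1 at -0.35 ± 0.14, Aldoc at -0.11 ± 0.09 and Pcp4 at -0.04 ± 0.11 differed little, and Foxp2 at 0.43 ± 0.18 lay above its mates in all 4 groups.

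The lists of smaller cerebellar populations were mixed, with some members counted as lower, against 0.542% of all genes, and others above 0. Of 8 Bergmann glia genes, 2 were counted as lower: Gdf10, a growth factor of these glia, at -1.94 ± 0.34 and A2m at -1.84 ± 0.29, the latter not well above background on the 4 arrays. Slc1a3, which Bergmann glia share with other astroglia, was close to 0 at -0.08 ± 0.11. In the same list 3 of 8 genes were above 0, Etv5 at 0.31, Etv4 at 0.26 and Fabp7 at 0.14. Above every mate in all 4 groups lay 2 of the 8, against 11.2% of all genes. The list median was -0.20, and 0.11 in oleic acid 1.5 h. Of 7 genes of cerebellar interneurons and unipolar brush cells, 2 were counted as lower, Tfap2a at -1.91 ± 0.32 and Eomes at -1.75 ± 0.38. Eomes is the T-box factor of unipolar brush cells that mitral cells of the olfactory bulb also express. Above 0 lay Sorcs3 at 0.44 and Grm2 at 0.02, and 1 of the 7 was above every mate in all 4 groups. The list of 11 general astrocyte genes had a median of -0.10 and the 16 oligodendrocyte genes 0.02, with none counted as lower, and both medians changed sign under another scaling (0.01 with the array median for astrocytes, -0.09 with quantile normalization for oligodendrocytes).

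Receptor families separated by member. Of 14 GABA-A receptor subunits only Gabra6, which the arrays were chosen by, was counted as lower, and the other 13 lay between -0.39 and 0.48. Gabrd, the delta subunit that granule cells and forebrain neurons carry, was 4.45, 4.21, 4.81 and 4.74 in the 4 low arrays and 4.2 to 4.80 in the mates, so the sets overlapped. Of 4 cerebellins, Cbln1 and Cbln3 were counted as lower, whereas Cbln2 at 0.13 ± 0.12 and Cbln4 at 0.11 ± 0.11 were not. Among 24 glutamate receptor genes the list median was 0.10. Grin2c, the mature granule cell NMDA receptor subunit, differed by -0.57 ± 0.22 and Grm4, a presynaptic receptor of parallel fibres, by -0.56 ± 0.14. The NMDA subunits Grin2a, at 0.57 ± 0.12, and Grin2b, at 0.36 ± 0.12, went the other way.

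**Figure D2:**
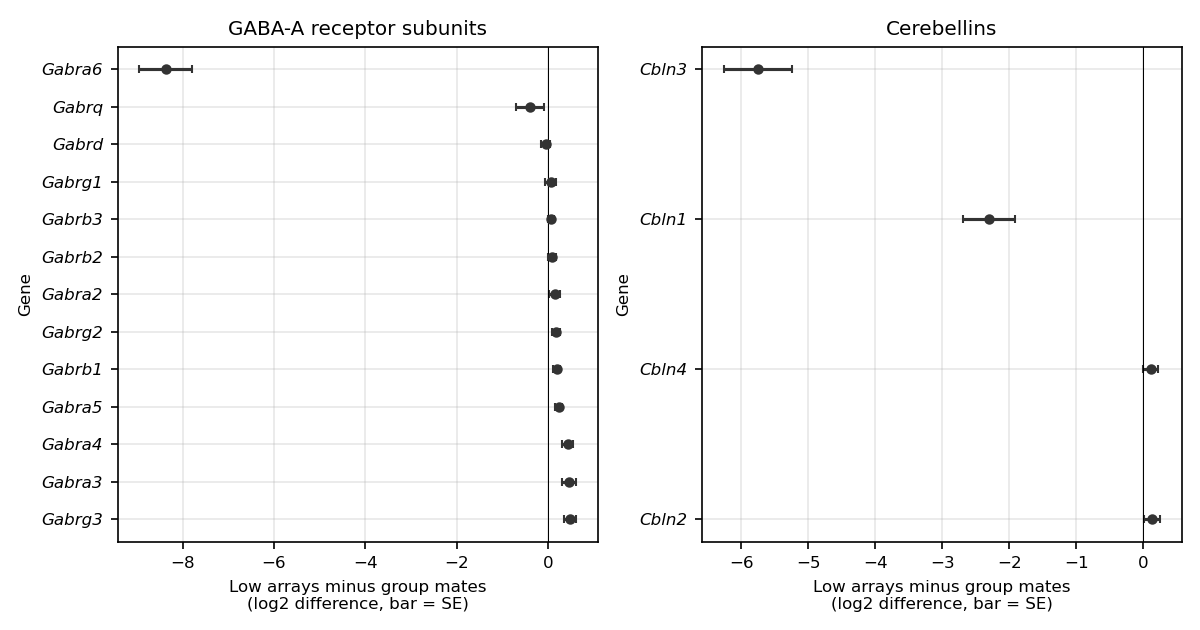
Log2 difference between the 4 low-Gabra6 arrays and their 7 group mates (x axis; points are fitted differences and bars their SE) for 13 of the 14 GABA-A receptor subunits measured and 4 cerebellins (y axis). Gabra6 stands alone at -8.37 in its family, while Cbln3 at -5.75 and Cbln1 at -2.30 stand apart from Cbln2 and Cbln4.

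The 20 arrays of the other groups were used for a test. Their Gabra6 levels were ranked in choosing the 4 arrays, but no other gene's level in them entered the choice or the comparison above. Within those 8 groups, the slope of each gene on the log2 Gabra6 level was positive at an adjusted p under 0.05 for 327 of 25279 genes (1.29%) and negative for 54 (0.214%), by limma with Benjamini-Hochberg adjustment over all genes. At an unadjusted p under 0.05 there were 2072 positive and 2893 negative slopes. Of the 136 genes counted as lower, leaving out Gabra6, 75 (55.1%) passed with a positive slope, against 1.29% of all genes, and none with a negative one. The 75 are 22.9% of the 327. A slope above 0 was found in 128 of the 136, against 11681 of all 25279 genes. Of the 327 genes with a passing positive slope, 311 were also below 0 in the 4 low arrays, against 10918 of all 25280.

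Ppp1r17 had the smallest p, with a slope of 0.82 ± 0.03 (SE) log2 units per log2 unit of Gabra6 (limma adjusted p = 1.26e-09). In the main setting Cbln3 had the steeper slope of the markers, at 1.05 ± 0.05 (limma adjusted p = 1.85e-08), and Pcp2 had one of 0.80 ± 0.04 (limma adjusted p = 3.06e-08). Over the alternatives the slope ran from 0.56 to 1.19 for Cbln3 and from 0.75 to 0.99 for Pcp2. The order of the 2 therefore depends on the setting. Crtam at 0.88, Hes3 at 0.71, Bcl2l15 at 0.69, Krt25 and Car8 at 0.65, Mybpc3 at 0.61 and Skor1 (a corepressor) at 0.59 made up the rest of the 10 named positive slopes. With the slide as a block, Pcp2, Cbln3, Ppp1r17, Crtam, Hes3, Krt25, Bcl2l15, Mybpc3, Skor1 and Car8 all still passed. Within single slides, Pcp2's slope was 0.88, 0.81, 0.76 and 0.89, and that of Cbln3 0.96, 1.03, 1.22 and 0.72, on slides 1, 3, 4 and 5. Slide 2 held 2 of these arrays, each the only one of its group there, and gave no slope.

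By list, 13 of 23 granule cell genes and 18 of 27 Purkinje cell genes passed with a positive slope, against 1.29% of all genes, and none with a negative one, against 0.214%. The slope test found list members that the 2-fold rule left out: Calb1 rose with Gabra6 at 0.24 ± 0.03, Rgs8 at 0.22 ± 0.03, Itpr1 at 0.13 ± 0.02 and Grin2c at 0.23 ± 0.03, each passing by limma. Gdf10 at 0.37, Hopx at 0.15, Tfap2a at 0.41 and Tfap2b at 0.29 passed among the Bergmann glia and interneuron genes. Gria4 at 0.13 ± 0.02 was the only other glutamate receptor gene to pass, and no GABA-A subunit did. The 10 named negative slopes were Itih1, Atp2b4, Cd7, Sult5a1, Sag, Dll3, Efna3, Egr3, Klf5 and Hbq1b. They were shallow, from -0.36 in Itih1 to -0.11 in Dll3, and Itih1 was itself lower in the low arrays, at -0.60 ± 0.51. With the slide as a block 8 of the 10 no longer passed, and the other 2, Atp2b4 and Klf5, did not pass with the arrays scaled to their median.

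The number of positive slopes was 215 with the slide as a block, 177 of them among the 327. It was 178 without oleic acid 3 h replicate 2, 499 without oleic acid 1 h replicate 3, 199 without either serum 18 h array, and 214 without the 2 arrays with the lowest Gabra6 (serum 1.5 h replicate 3 and serum 18 h replicate 1). The number of negative slopes was less stable, from 11 without oleic acid 3 h replicate 2 to 245 without oleic acid 1 h replicate 3.

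**Figure D3:**
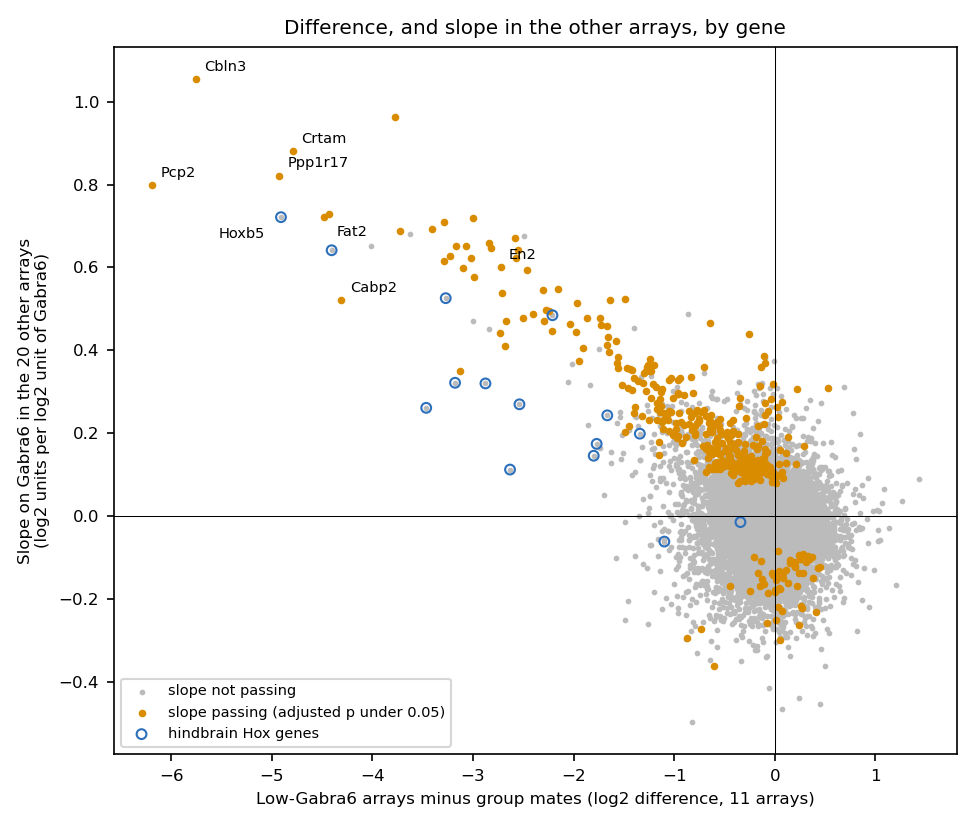
For each gene except Gabra6, the log2 difference between the 4 low-Gabra6 arrays and their mates (x axis) and the slope on Gabra6 in the 20 arrays of other groups (y axis); orange points passed the slope test (limma adjusted p under 0.05) and blue rings are the 15 hindbrain Hox genes. Cerebellar genes such as Pcp2 and Cbln3 lie at the upper left and passed. The Hox genes have differences from -4.91 to -0.34, and none passed, although 13 of their 15 slopes were above 0.

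Hindbrain genes were lower in 3 of the 4 low arrays, and none of 15 Hox genes passed the slope test. Of their slopes 13 of 15 were still above 0, against 11681 of all 25279 genes. The median Hox slope was 0.26, against 0.23 for granule cell genes and 0.18 for Purkinje cell genes. Not passing therefore does not show that Hox genes had no slope on Gabra6. Hox genes mark the hindbrain and spinal cord. Their median difference was -2.54, with -3.42 in serum 1 h, -3.64 in serum 4 h and -3.09 in oleic acid 4 h, but -0.12 in oleic acid 1.5 h. Of the 15, 5 were counted as lower, against 0.542% of all genes. In oleic acid 1.5 h, 3 and 1 of the 15 were well above background in the mates and 2 in the low array. The count therefore rests there on the order of dim signals. Only in oleic acid at 18 h were all 15 well above background on every array of a group, so most passed the filter on dim probes through that group. This list median is sensitive to the handling of dim signals and was -0.54 with the normexp correction, -0.73 in the deposited value table and -0.34 when only probes above background on 24 or more arrays were kept. The last value is that of Hoxa7, the only Hox gene left by that strict filter.

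Hoxb5 was -6.61 in serum 1 h replicate 1 against -0.56 and -0.59 in its mates, -7.66 in serum 4 h replicate 2 against -0.40, and -7.54 in oleic acid 4 h replicate 3 against -1.21 and -0.99. In oleic acid 1.5 h it was -7.50 in the low array and -7.03 and -7.00 in the mates, so that whole group was low.

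Low hindbrain signal was not particular to the 4 arrays. All 4 had 1 or 2 of the 15 Hox genes well above background, their summed Hox level ran from 0.148 to 0.215 in units of the 75th percentile, and 16 further arrays also had fewer than 4 such genes. In the 7 mates the sum ran from 0.158 to 2.26 and in the 20 other arrays from 0.148 to 2.15. The 9 arrays with 10 or more Hox genes above background had Gabra6 between 0.68 and 2.32, while the 22 with fewer than 9 ranged from -7.59 to 1.78, so many brains had high Gabra6 with low Hox signal.

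Further forward in the brainstem the 4 arrays differed from each other. Slc6a2, the noradrenaline transporter of the locus coeruleus, was -7.51 in serum 1 h replicate 1 against -3.38 and -3.0, and -7.15 in oleic acid 4 h replicate 3 against -3.21 and -3.38. It was -3.69 in serum 4 h replicate 2, near its mate at -3.41, and in oleic acid 1.5 h all 3 arrays were low, at -7.51, -7.14 and -5.98. Serum 4 h replicate 2 therefore kept this signal while its Hoxb5 and Gabra6 were not well above background.

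Tph2, the enzyme of serotonin synthesis in the raphe nuclei, was -2.17, -2.39 and -3.42 in the low arrays of serum 1 h, oleic acid 1.5 h and serum 4 h, and -6.03 in oleic acid 4 h replicate 3, whose mates were -2.14 and -2.19. Slc6a4, the serotonin transporter of the same neurons, was -2.62, -2.80, -3.06 and -7.12 in that order. Among the low arrays and their mates, only oleic acid 4 h replicate 3 was low for both, apart from the mate oleic acid 1.5 h replicate 1, at -4.75 for Tph2 and -5.76 for Slc6a4. Over the 14 brainstem monoamine, cholinergic and glycine genes, 2 were counted as lower, against 0.542% of all genes. These were Slc6a2 and Phox2a, a homeobox factor of the same neurons. Only 1, Dbh, passed the slope test (0.46 ± 0.11, limma adjusted p = 0.0477), against 1.29% of all genes. Dbh did not pass with the slide as a block, without the filter on dim probes or without any one of most single arrays.

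Oleic acid 4 h replicate 3 was also low for hypothalamic peptides. Hcrt, the orexin precursor, was -0.70 there against 2.71 and 2.52 in its mates, and Oxt, oxytocin, -0.65 against 3.15 and 3.65. In the other 3 low arrays Hcrt was 3.01, 2.91 and 3.15 and Oxt 4.07, 3.87 and 4.21, above all mates except that oleic acid 1.5 h replicate 1 had Oxt at 4.03. A mate, serum 1 h replicate 3, was low as well, with Hcrt at 1.38 and Oxt at 0.62. Outside the 4 groups, oleic acid 24 h replicate 2, with Gabra6 at 1.00, was lower still by list. Its mean level was -1.93 over the 15 hypothalamic genes and -4.04 over the 14 brainstem genes. In oleic acid 4 h replicate 3 these means were -1.44 and -3.67. The median difference from the group mates over 15 hypothalamic genes was -0.65 in oleic acid 4 h replicate 3 and 0.65, 0.15 and 0.57 in the arrays of serum 1 h, oleic acid 1.5 h and serum 4 h. Midbrain dopamine genes followed, with Slc6a3, the dopamine transporter, at -1.18 from its mates in oleic acid 4 h replicate 3 and 0.34 to 0.42 in the other 3 arrays.

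**Figure D4:**
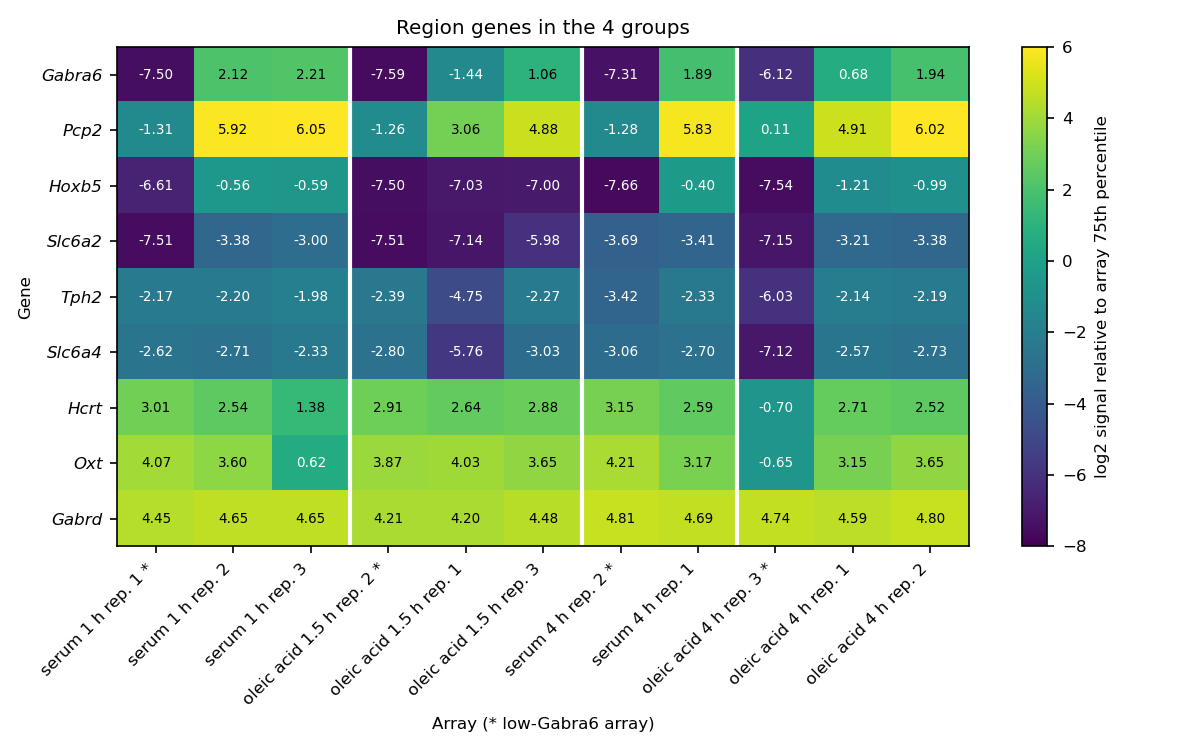
Log2 signal (colour and printed value, relative to the array's 75th percentile) of 9 genes (rows) in the 11 arrays of the 4 groups (columns; asterisks mark the low-Gabra6 arrays, white lines separate groups). Gabra6 and Pcp2 are low under every asterisk, Tph2, Slc6a4, Hcrt and Oxt are low under 1 asterisk, oleic acid 4 h replicate 3, and Gabrd is even throughout, between 4.2 and 4.81.

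Striatal genes lay slightly higher in the 4 arrays, and cortical genes in 3 of them. All 15 striatal genes had a difference above 0, against 14362 of all 25280 genes, with a median of 0.41. Above every mate in all 4 groups lay 10 of the 15, against 11.2% of all genes. Adora2a, the adenosine receptor of striatal projection neurons, differed by 0.68 ± 0.23, Rgs9 by 0.53 ± 0.12 and Pdyn by 0.48 ± 0.13. The medians of the cortical, hippocampal and thalamic lists were 0.21, 0.22 and 0.13, and in oleic acid 1.5 h alone they were -0.09, 0.06 and 0.0069. No striatal gene and 1 of 18 cortical genes, Fezf2, passed the slope test with a negative slope (-0.10 ± 0.02, limma adjusted p = 0.0275), though not with median scaling. Slopes below 0 were found in all 15 striatal and 15 of 18 cortical genes, against 13598 of all 25279 genes. The median slopes were -0.06 and -0.04. Not passing therefore does not show that these genes had no slope on Gabra6. Slopes that did not pass were not followed under other scalings. The median difference of the striatal list was above 0 under every scaling tried, between 0.31 and 0.52.

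Of 13 microglial genes 12 were above 0, against 14362 of all 25280 genes, with a median of 0.28. Above every mate in all 4 groups lay 9 of the 13, against 11.2% of all genes, a share that depends on array scaling. Cx3cr1 at 0.45 ± 0.11 was among the 9. None of the 13 passed the slope test, but 12 of their slopes were below 0, against 13598 of all 25279 genes. Neuronal immediate early genes had a median of -0.02 and endothelial genes one of 0.10. All 14 immediate early genes had a slope below 0, with a median of -0.07, and none passed. The 3 named genes counted as higher were dim. Ccl3, a chemokine, differed by 1.14 ± 0.16 and was not well above background on any of the 7 mates. Dkk2, a Wnt antagonist, differed by 1.04 ± 0.28, and Tph1, the serotonin enzyme of the pineal gland, by 1.03 ± 0.37, and none of the 3 had a passing slope. With normexp none of them reached 2-fold, at 0.19, 0.19 and 0.28.

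Liver genes also differed between these arrays. Of 18, 17 had a difference below 0, against 10918 of all 25280 genes, with a median of -0.53. By group the median was -1.25 in serum 1 h, -0.40 in oleic acid 1.5 h, -0.99 in serum 4 h and 0.72 in oleic acid 4 h. Alb, albumin, was -6.09 in serum 4 h replicate 2 against -1.72, and 0.65 in oleic acid 4 h replicate 3 against -0.75 and -0.55. None of the liver genes was counted as lower or passed the slope test. Of their slopes 14 of 18 were above 0, against 11681 of all 25279 genes, with a median of 0.03. Whether other tissue in the sample had a part in the results was not tested.

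**Figure D5:**
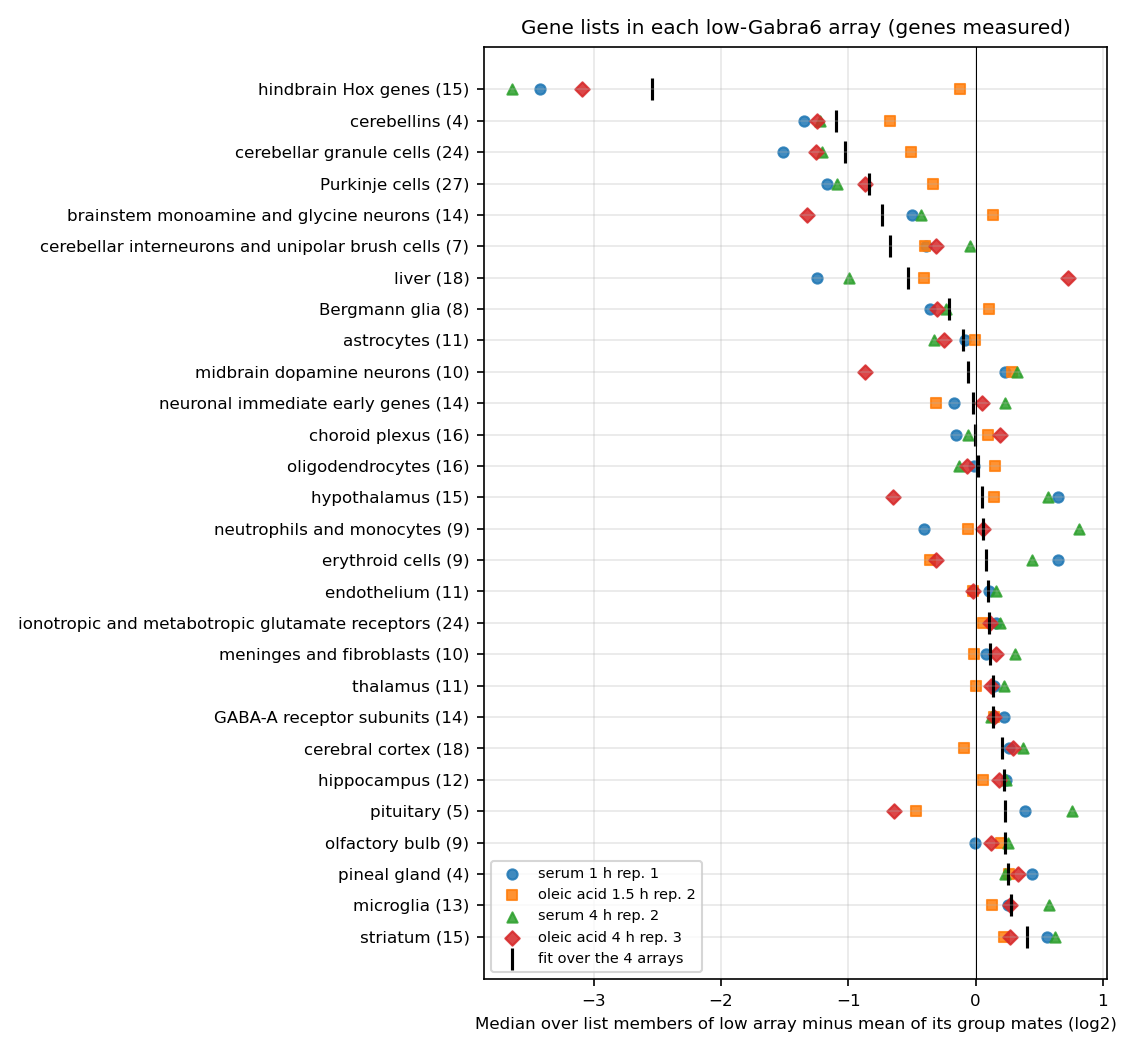
For each gene list (y axis, number of measured genes in brackets), the median over its genes of the log2 difference between a low-Gabra6 array and the mean of its group mates (x axis); symbols are the 4 low arrays and black ticks the median of the fitted differences. Granule and Purkinje lists are below 0 in all 4 arrays, Hox genes in 3 of them clearly, and the striatal list lies above 0 in all.

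The 4 arrays enter the study's comparisons of oleic acid with serum at 1, 1.5 and 4 h, with 1 low array in the serum arm at 1 h, 1 in the oleic acid arm at 1.5 h and 1 in each arm at 4 h. With all 31 arrays, limma passed 0 genes at 1 h and at 1.5 h and 1 gene (0.00396%) at 4 h, with 1231, 1348 and 770 genes at an unadjusted p under 0.05. Without the 4 arrays it passed 0 genes at each time, with 986, 1460 and 721 at an unadjusted p under 0.05. The transcript that passed at 4 h, ENSMUST00000079163, differed by -3.32 ± 0.42 (limma adjusted p = 0.00238) with all arrays and by -3.10 ± 0.62 without the 4 (limma adjusted p = 0.308). Leaving the 4 out leaves a single serum mouse at 4 h, whose spread is taken from the other groups, so the lost call and the count of 0 at 4 h rest on that arm and say little about the gene. The counts of 0 rest on single arrays: 30 genes passed at 1 h without serum 1 h replicate 3, and 158 passed at 1.5 h without serum 1.5 h replicate 3, when the remaining serum arrays at 1.5 h share no slide with the oleic acid arrays. With the slide as a block 30 genes passed at 1.5 h.

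No granule or Purkinje cell gene of the lists passed at any of these times, with or without the 4 arrays. The arrays were chosen for low Gabra6, so leaving them out must raise it in the arm that held them, and the values that follow only give the size of this. Gabra6 differed by 2.63 ± 2.64 at 1 h, -2.15 ± 2.64 at 1.5 h and 1.54 ± 2.95 at 4 h, oleic acid minus serum. Without the 4 arrays the values were -0.59 ± 1.5, 0.32 ± 1.5 and -0.58 ± 2.01. The median of the granule cell list went from 0.08 to -0.49 at 1 h, from -0.30 to -0.08 at 1.5 h and from 0.15 to -0.18 at 4 h, and that of the Purkinje list from 0.05 to -0.29, -0.20 to -0.09 and 0.02 to -0.24. The Hox list had a median of -2.33 at 1 h with all arrays and -3.44 without them, and none of its genes passed. The remaining serum mice at 1 h had 14 and 15 of the 15 Hox genes well above background, and the oleic acid mice at 1 h had 1 or 2.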

How the data were processed

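Total RNA of 31 whole brains (200 ng each) was labelled with Cy3 and hybridised to Agilent arrays. Spots were quantified by the authors in Agilent Feature Extraction (version 10.5.1.1, per the submitters' processing notes). The deposited array files give Cy3 intensity per spot, per the file headers as a mean, a local background and a processed intensity (background-subtracted and detrended), and 0 or 1 flags for background, saturation and uniformity. A value table, also deposited, holds log2 values. It correlated at 0.998 to 1.00 with log2 mean intensity on the same array, with column medians of 6.34 to 6.35, and was used as an alternative.

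Processed intensities were log2-transformed and the 75th percentile of each array subtracted. Non-uniform spots (at most 107 an array) were left out and spots of a probe averaged. Probes were kept if measured on all 31 arrays and, in 1 or more of the 12 groups, well above background throughout (35652 of 55681), and the brightest stood for its gene (25280). RefSeq accessions named 26582 probes, symbols 2602, and 26497 kept the file's name. Probe coordinates are on mm9, from the array files. Over the arrays 54.3% to 76.3% of spots were above background (median 62.2%), and the 75th percentile of intensity was 306 to 813. The number of arrays limits the precision.

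Models were fitted with limma 3.58.1 in R 4.3.3 and checked on simulated data: the low-array difference with group means removed (6 residual degrees of freedom, no test), the slope on Gabra6 in the 20 other arrays (11), and 12 group means (19). Adjusted p-values under 0.05 passed. Folds given as at least a value take the lowest signal above background on each low array as the bound. The bound holds for processed intensities only. The 4 arrays, the 28 gene lists, the comparisons and the alternatives were chosen with earlier results of these data known. Named genes were the 3 markers, list members, the 15 largest lower and 10 largest higher differences above background, and the 10 smallest adjusted p in each slope direction, passing over identifiers. Crtam, Cabp2 and others outside the lists were named by this rule. ENSMUST00000079163 was named after its value was seen. Some genes are not reported here.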

Additional observations from a re-analysis of the deposited data

Results flagged for a closer look

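In 5 results the low arrays of the serum groups lay on one side of their mates and those of the oleic acid groups on the other. Each arm has 2 low arrays and the difference between the arms was not tested. Values are log2 differences from the group mates, in the order serum 1 h, oleic acid 1.5 h, serum 4 h, oleic acid 4 h. Hbq1b, a theta globin, was at 0.65, -0.40, 0.30 and -0.44. The median of 9 erythroid genes was 0.65, -0.36, 0.44 and -0.31, and that of 5 pituitary genes 0.39, -0.47, 0.75 and -0.64. The median of 16 choroid plexus genes went the other way, at -0.15, 0.0949, -0.0626 and 0.19. That of 11 endothelial genes was 0.10, -0.0188, 0.16 and -0.0184.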

How the results depend on the processing

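Direction was followed only for the named genes and list members. Among these, no slope that passed and no gene counted as lower or higher changed direction. List medians near 0 did: 11 of 28 lists, with main medians of at most 0.25 in size, changed sign under at least 1 of 11 alternatives (scaling, background, filter, probes or 1 low array left out). Among them were pituitary genes without a filter (0.23 to -0.11), and midbrain dopamine (-0.06 to 0.23) and erythroid genes (0.09 to -0.15) with 1 array left out. The median of all genes went from 0.03 to -0.01 without a filter. The Hox median was the most negative of all lists in the main setting, but the cerebellins were with normexp (-1.02), the value table (-1.07) or the strict filter (-1.09). With the strict filter the Hox list held Hoxa7 alone. Genes counted as lower (137) numbered 58 with normexp, 90 with quantile normalization, 60 in the value table, 301 at 1.5-fold, 48 at 4-fold, 354 in the serum groups alone and 233 in the oleic acid groups alone. Leaving out 1 array gave 137 to 328. Genes counted as higher (4) numbered 0, 14, 0, 43, 0, 72 and 19 in that order, 2 with the strict filter, and 3 to 14 with 1 array left out. Positive slopes (327) numbered 538 with quantile normalization, 535 with median scaling, 610 in the value table, 215 with the slide block, 752 over all 31 arrays, which include those chosen by Gabra6, and 1324 with array weights, which did not converge. Leaving out 1 array gave 178 to 499, and leaving out the 2 lowest arrays, chosen after seeing the data, 214. Negative slopes (54) numbered 35 with normexp, then 136, 159, 144, 19, 812 and 1330 in the same order, 26 without a filter, 31 on Pcp2 and Cbln3, 157 on linear Gabra6, 22 without the 2 lowest arrays, and 11 to 245 with 1 array left out. Of 2022 settings of named slopes, 1828 kept the call and 194 lost it.

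Same-numbered arrays of different groups had a median correlation near 0 (median r 0.03, from -0.62 to 0.52 over 153 pairs). The labels do not say whether same-numbered mice share a litter or a day, and these correlations cannot settle it. The numbers were treated as names in the main fits. The replicate block gave 120 positive slopes (115 of the 327) and 9 negative ones. For oleic acid minus serum, 1.5 h (0 genes) gave 1 in the value table and 30 with the slide block. At 4 h (1 gene) the count was 0 with normexp, the strict filter or without the 4 low arrays, and 2 with quantile normalization, the slide block or Gabra6 as a covariate. Leaving out 1 array gave 0 to 30 at 1 h, 0 to 158 at 1.5 h and 0 to 4 at 4 h. Signals not well above background give bounds only, and the Hox median rests most on them.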
